A study of Mus musculus with 14 samples.

Results

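The mitochondrial chromosome (MT) of the mouse carries 37 genes, and the RNA of all 37 was read here in mouse embryonic stem cells (ESCs) as they differentiated with and without a knockdown of Dis3l2. The 37 genes were taken as every gene that the deposited count table places on chromosome MT, out of 50686 genes in the table. They comprise 13 protein-coding genes, 2 rRNA genes and 22 tRNA genes. The cells were ESCs that, per the study, carry an Osr1-GFP reporter and express a stable short hairpin RNA, either against lacZ (shLacZ, the control) or against Dis3l2 (shDIS3L2), the gene for a cytoplasmic exoribonuclease that degrades uridylated RNAs. Day 0 (d0) was the undifferentiated culture in LIF and 2i, a medium with inhibitors of a pair of kinases that holds ESCs in their ground state. Embryoid bodies (EBs), aggregates that differentiate without added lineage signals, were then formed in hanging drops in serum without LIF and 2i, moved to suspension culture, and sampled every other day from d2 to d12. There was 1 library per line and day, 14 in all, so no library has a replicate, each line stands for 1 knockdown culture followed over time, and the days of 1 series are not replicate cultures.

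Each library held between 7178712 reads (shLacZ d4) and 39888099 reads (shLacZ d0) counted on genes. A count of 0 therefore allows a level of up to 0.0752 to 0.418 CPM, the reads of a gene scaled to a common library total. Dis3l2, the targeted gene, stood at d0 in shDIS3L2 at 13.7% of its shLacZ level (95% Clopper-Pearson interval 11.1 to 16.7). From d2 to d6 it stood at 28.1%, 32.1% and 55.2%, and from d8 to d12 at 97.1% (83.7 to 113), 94.98% and 75.4%. At d8 and d10 the level of the target thus did not separate the lines, and what is said of the later days is said of libraries labelled shDIS3L2. Markers of undifferentiated ESCs summed to 3060 CPM (shLacZ) and 2164 CPM (shDIS3L2) in the d0 libraries and to 64.5 to 1236 CPM in the EBs. The libraries of d0 stood apart from the rest in other ways. Processed pseudogenes took 20.1% (shLacZ) and 21.0% (shDIS3L2) of the reads at d0, against 7.60% to 12.7% in the 12 EB libraries, and edgeR's TMM factors, which scale the libraries to one another, were 0.764 and 0.642 against 0.999 to 1.12. All intervals given here cover counting error only.

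Mitochondrial DNA is transcribed from both strands as long polycistronic RNAs by Polrmt with Tfam and Tfb2m. The tRNA genes lie between most of the rRNA and protein-coding genes, and excision of the tRNAs by RNase P and Elac2 frees the mRNAs and rRNAs, which is known as the tRNA punctuation model. The mRNAs then receive short poly(A) tails from Mtpap, which in some of them complete the stop codon, and Lrpprc with Slirp keeps them stable. The mitochondrial rRNAs carry at most very short tails and mature tRNAs have none, so a library made from poly(A)+ RNA reads mRNAs and tRNAs with unequal efficiency. The 13 proteins are all subunits of the oxidative phosphorylation complexes: Nd1 to Nd6 and Nd4l of complex I, Cytb of complex III, Co1 to Co3 of complex IV, and Atp6 and Atp8 of complex V. All other subunits are encoded in the nucleus.

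On the heavy-strand transcript lie 12 of the 13 mRNAs, and mt-Nd6 is the exception (MT:13552-14070, minus strand, GRCm38). The count table's coordinates of all 37 genes equal those of GENCODE M21. The annotated sequences of mt-Co3, mt-Nd4 and mt-Cytb end 1 base, a T, past their last whole codon, which leaves the stop codon to the poly(A) tail, and the other 10 end in TAA or TAG. In 2 places neighbouring mRNAs share bases and are known to be carried on 1 bicistronic RNA. These are shown because the reads per length of the upstream reading frame, relative to its partner, differed strongly between d0 and the EBs. As each pair is known to be carried on 1 RNA, this ratio compares reads on parts of that RNA. mt-Atp8 (MT:7766-7969, plus strand) shares its last 43 bases, from position 162, with mt-Atp6. mt-Nd4l (MT:9877-10173, plus strand) shares its last 7 bases, from position 291, with mt-Nd4. mt-Atp6 and mt-Co3 share 1 base, MT:8607, and are not shown. The sequences are of the GENCODE M21 transcripts, 5′ to 3′, with the shared bases in capitals.
mt-Atp8: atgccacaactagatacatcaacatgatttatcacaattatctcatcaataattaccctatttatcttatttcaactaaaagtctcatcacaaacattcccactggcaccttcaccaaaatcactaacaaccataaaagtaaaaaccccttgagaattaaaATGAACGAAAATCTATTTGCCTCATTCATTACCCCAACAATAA
mt-Nd4l: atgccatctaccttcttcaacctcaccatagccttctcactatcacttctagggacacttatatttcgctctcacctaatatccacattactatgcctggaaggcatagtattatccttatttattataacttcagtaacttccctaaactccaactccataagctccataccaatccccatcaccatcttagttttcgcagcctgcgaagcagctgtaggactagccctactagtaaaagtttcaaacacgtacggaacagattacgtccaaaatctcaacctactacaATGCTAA

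Of the 22 tRNA genes, 59 to 75 bases long, 8 had no read in any of the 14 libraries (mt-Tf, mt-Tv, mt-Tk, mt-Tg, mt-Tr, mt-Th, mt-Ts2 and mt-Tl2) and 14 had at least 1. All tRNA genes together received 7702 reads. The genes without reads share a position. In 8 tRNA genes a gene of the same strand lies within 3 bases on both sides, a distance chosen after the values were seen, and 7 of these had no read while the other, mt-Tl1, had 4 reads in all. Of the 14 tRNA genes without such neighbours on both sides, 1 had no read (mt-Tf, at the first base of the numbering). How reads that overlap more than 1 gene were counted is not given in the sources used here, and its part in the zeros was not tested. The tRNAs with the highest mean CPM over the 14 libraries were mt-Td, mt-Tt, mt-Tw and mt-Tp with 4548, 1063, 782 and 589 reads. They are printed with mt-Tq (352 reads), which the comparisons below also turn on, and with mt-Tr, a gene without reads between mt-Nd3 and mt-Nd4l. Anticodons are in capitals, the build is GRCm38, and the letters are those of the RNA's own strand written with T.
mt-Td, MT:6942-7011, plus strand: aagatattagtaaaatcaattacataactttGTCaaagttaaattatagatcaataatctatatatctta
mt-Tt, MT:15289-15355, plus strand: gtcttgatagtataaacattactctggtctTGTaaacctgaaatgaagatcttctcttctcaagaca
mt-Tw, MT:4950-5016, plus strand: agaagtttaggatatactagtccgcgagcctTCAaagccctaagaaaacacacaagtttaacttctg
mt-Tp, MT:15356-15422, minus strand: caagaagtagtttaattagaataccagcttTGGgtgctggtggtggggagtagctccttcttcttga
mt-Tq, MT:3772-3842, minus strand: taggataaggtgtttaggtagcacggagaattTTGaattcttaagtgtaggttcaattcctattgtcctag
mt-Tr, MT:9808-9875, plus strand: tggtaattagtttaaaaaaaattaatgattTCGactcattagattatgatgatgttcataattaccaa
mt-Tt and mt-Tp are neighbours on opposite strands, as are mt-Tq and mt-Ti, and how the counting used strand is not given in the sources used here. Reads of overlapping or facing genes can therefore not be told apart with certainty, which also holds for mt-Nd6 and the end of mt-Nd5 on the other strand.

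The share of all counted reads that fell on the MT genes was lowest in the undifferentiated cultures and highest at d8. In shLacZ it was 2.63% before differentiation (2.63 to 2.64), and on the 6 EB days it was 4.07%, 4.39%, 5.45%, 6.08%, 4.78% and 3.62%. In shDIS3L2 it was 2.43% before differentiation and then 4.62%, 4.01%, 5.11%, 5.995%, 5.70% and 4.24%. Both d0 libraries were below all 12 EB libraries, and the order of the lines changed from day to day. The mRNAs made up 95.7% to 98.7% of these reads, so the share of the MT genes is in effect that of their mRNAs. All 13 mRNAs together stood in the libraries labelled shDIS3L2 at 0.895 of the shLacZ CPM at d0, and then at 1.14, 0.919, 0.946, 1.002, 1.203 and 1.18 from d2 to d12. With 1 library per line and day, these ratios have no replicate check.

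**Figure D1:**
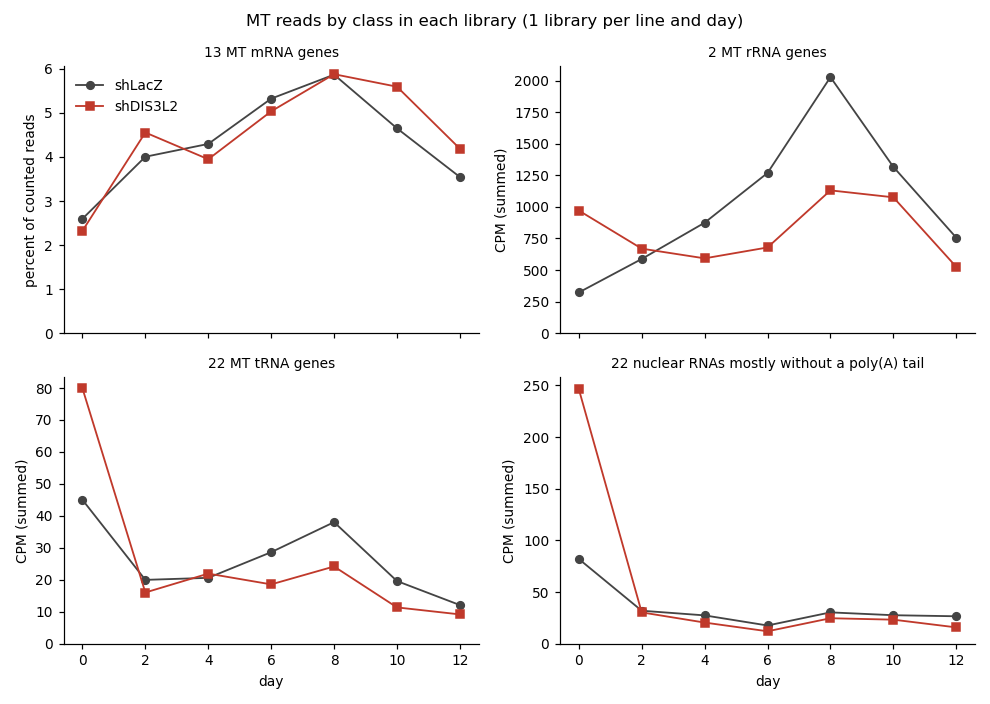
Reads of the MT genes in each of the 14 libraries, by day (x axis) and line, as percent of counted reads for the 13 mRNAs and as summed CPM for the 2 rRNAs, the 22 tRNAs and the 22 nuclear RNAs mostly without a poly(A) tail. Each point is 1 library. The protein-coding genes were lowest at d0 in both lines, the rRNAs of the libraries labelled shDIS3L2 lay below those of shLacZ from d4 to d12 and above them at d0, and the tRNAs were highest at d0 in both lines.

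The 2 rRNAs of the mitochondrial ribosome, mt-Rnr1 of the small and mt-Rnr2 of the large subunit, summed in shLacZ to 322 CPM at d0 and to 588, 875, 1269, 2028, 1317 and 756 CPM from d2 to d12. In shDIS3L2 they summed to 971 CPM at d0 and to 669, 593, 679, 1131, 1076 and 525 CPM. The control series thus had its lowest rRNA value at d0 and its highest at d8, while the shDIS3L2 series stood at 971 CPM already at d0. The tRNAs summed to 45.0 CPM at d0 in shLacZ and to 20.0, 20.6, 28.6, 38.04, 19.6 and 12.1 CPM from d2 to d12. In shDIS3L2 they summed to 79.9 CPM at d0 and to 16.03, 21.9, 18.6, 24.2, 11.4 and 9.18 CPM. For both lines the d0 library held the most tRNA reads. A list of 22 RNAs mostly without a poly(A) tail, such as the RNA subunits of RNase P and RNase MRP, was likewise highest at d0, at 82.0 CPM (shLacZ) and 246 CPM (shDIS3L2) against 12.1 to 32.0 CPM in the EBs. In shLacZ 60.5 CPM of it was Snora73b, with Rpph1 at 10.1 CPM, Rn7sk at 3.51 CPM and Rmrp at 1.30 CPM. In shDIS3L2 these stood at 67.0, 65.4, 65.9 and 29.9 CPM. In shLacZ the sum of the list was thus highest at d0, where the rRNAs were lowest, and most of that sum was Snora73b. Single RNAs differed. In shLacZ, Snora73b, Rpph1 and Rmrp were highest at d0, while Rn7sk rose from 3.51 CPM at d0 to 14.7 CPM at d8 and stood at 11.0 CPM at d12. In shDIS3L2, Rn7sk stood at 2.24 CPM at d2 and 15.6 CPM at d8. The paper names RMRP among the RNAs that DIS3L2 degrades, and the part of the knockdown in the values of the list was not tested. The part of the untailed RNA in the rRNA and tRNA values at d0 was not tested either.

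Per kilobase of annotated length, the mRNAs covered a wide range of levels. The median over the 14 libraries was 9489 CPM per kb for mt-Co1, 7249 for mt-Co2, 6570 for mt-Co3 and 6364 for mt-Atp6. These were followed by mt-Nd1 at 3742, mt-Cytb at 3309, mt-Nd2 at 2048, mt-Nd4 at 2013, mt-Atp8 at 1286, mt-Nd4l at 1284, mt-Nd5 at 1252 and mt-Nd3 at 1018 CPM per kb. mt-Nd6, the mRNA of the light-strand transcript, was lowest at 113.5 CPM per kb. Neighbours in this order such as mt-Nd2 and mt-Nd4, or mt-Atp8, mt-Nd4l and mt-Nd5, had medians that differed by less than the range over libraries. For mt-Rnr1 and mt-Rnr2 the medians were 248.6 and 365.5 CPM per kb, below every mRNA except mt-Nd6. Nuclear copies of mitochondrial DNA, which can take reads from the MT genes, summed to 609 to 1174 CPM over the 14 libraries.

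**Figure D2:**
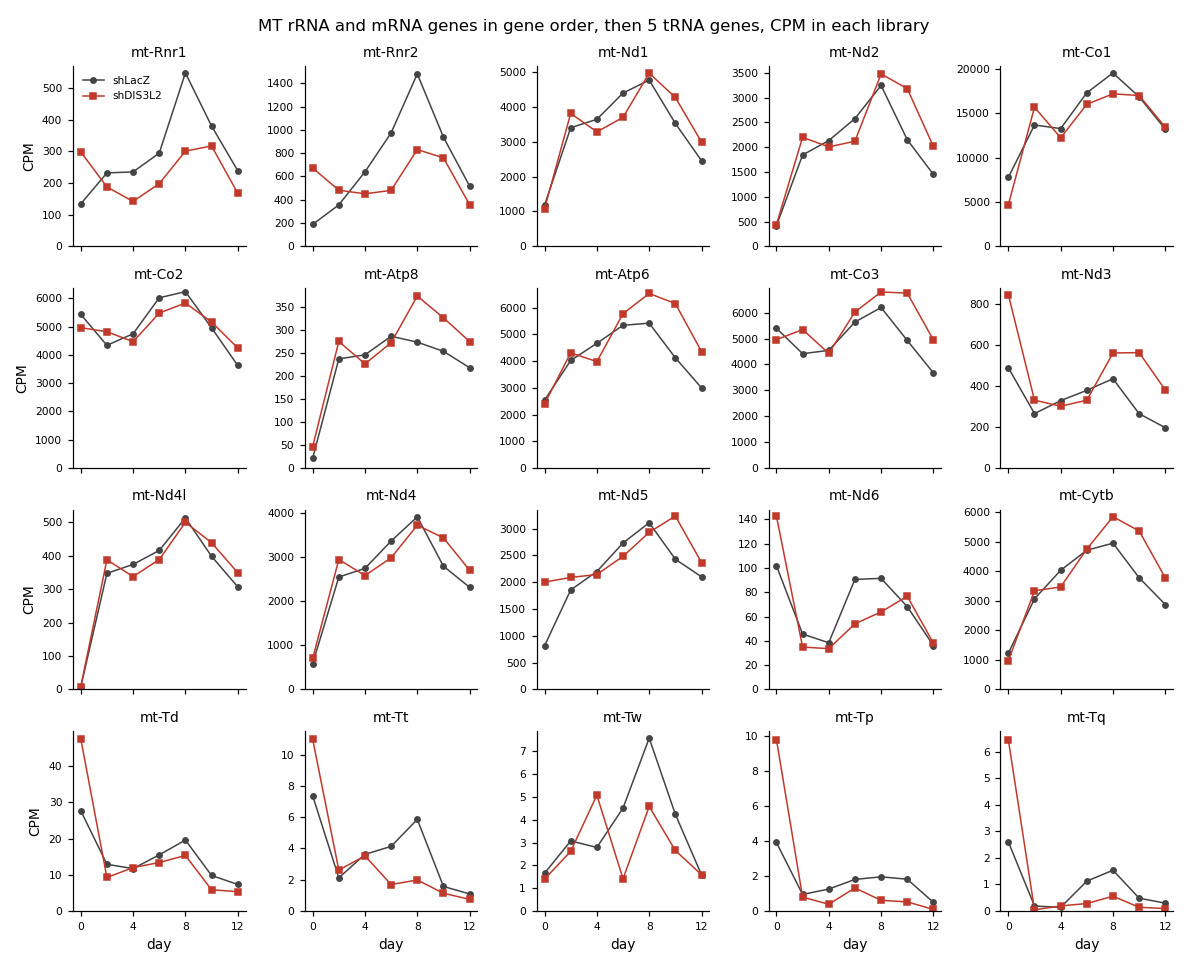
CPM (linear axis from 0) of both rRNAs, the 13 mRNAs and 5 tRNAs, 1 panel each, by day, with 1 point per library joined by line. mt-Nd4l, mt-Atp8, mt-Nd2 and mt-Nd4 were lower at d0 than on every later day in both lines, and mt-Nd6, mt-Nd3, mt-Td, mt-Tp and mt-Tq were higher.

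The contrast of d2 with d0 spans the exit from LIF and 2i. Both d0 libraries also differ from the EB libraries in pseudogene share and TMM factor, which cannot be told apart from the exit here. The contrast was fitted with edgeR's quasi-likelihood test over 20050 genes, with day and line as factors. Its error therefore comes from libraries of both lines. Of the 37 MT genes, 22 passed the filter on low counts (13 mRNAs, both rRNAs and 7 tRNAs), and those that did not were all tRNAs. At an adjusted p under 0.05, 7 of the 22 rose from d0 to d2, where 34.5% of all genes tested rose. Another 10 fell, where 31.0% of all genes fell. Over all genes 6924 rose and 6212 fell, and with library totals 9265 and 4107. The median log2 change of the 22 was -0.73 against 0.12 for all genes. It was -0.09 with library totals, and without the shDIS3L2 library of d0 it turned to 0.43. That all-gene median depended on the scaling, at 0.71 with library totals and -0.21 with DESeq2 size factors, so the changes are read relative to it.

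Among the genes that rose, mt-Nd4l, a small membrane subunit of complex I, had the highest value. It stood at 7.32 and 8.61 CPM in the d0 libraries of shLacZ and shDIS3L2 and at 348 and 388 CPM at d2, a log2 change of 4.92 (SE 0.20, adjusted p = 3.37e-07, edgeR). mt-Atp8, a small subunit of the ATP synthase, stood at 20.7 and 46.1 CPM at d0 and at 236.5 and 274 CPM at d2, a log2 change of 2.34 (SE 0.31). mt-Nd2, mt-Nd4 and mt-Nd1, core membrane subunits of complex I, rose by 1.63, 1.48 and 1.07 on the log2 scale, mt-Cytb, the cytochrome b of complex III, by 0.94, and mt-Co1, the catalytic subunit of complex IV, by 0.67 (adjusted p = 0.00883). mt-Nd3 and mt-Nd6, also of complex I, went the other way, with log2 changes of -1.75 and -2.26. mt-Nd6 stood at 102 and 143 CPM at d0 and at 45.6 and 34.9 CPM at d2. mt-Co2 and mt-Co3, core subunits of complex IV next to mt-Co1, fell by 0.79 and 0.70 (adjusted p = 0.0013 and 0.0034). With library totals in place of TMM these 2 calls were lost (-0.18, adjusted p = 0.235, and -0.10, adjusted p = 0.611) and mt-Atp6 rose by 0.75. mt-Atp6 (0.15) and mt-Nd5 (-0.12) did not pass the test. The read counts of the genes of 1 transcript and of 1 complex therefore did not change together from d0 to d2. This also held for frames known to lie on 1 bicistronic RNA, with 4.92 and 1.48 for mt-Nd4l and mt-Nd4, and 2.34 and 0.15 for mt-Atp8 and mt-Atp6. The part of the library properties of d0 in these values was not tested.

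The untailed classes had the other negative values. mt-Tq, mt-Tp, mt-Ti, mt-Tt, mt-Td and mt-Ts1 all fell, with log2 changes of -6.01, -3.81, -2.92, -2.62, -2.45 and -2.13. mt-Td, the most abundant tRNA, stood at 27.7 and 47.5 CPM at d0 and at 12.9 and 9.25 CPM at d2. mt-Tq stood at 104 and 171 reads at d0 and at 5 and 1 reads at d2, so its change rests on few reads. mt-Tw did not pass the test (0.29). mt-Rnr1 (-0.79, adjusted p = 0.138) and mt-Rnr2 (-0.76, adjusted p = 0.286) did not pass either. For the rRNAs, and for mt-Nd5, the value depended on the d0 library used. Without the shLacZ library of d0, mt-Rnr1, mt-Rnr2, mt-Ta and mt-Nd5 also fell, and without the shDIS3L2 library of d0, mt-Nd5 rose and the rRNAs did not pass the test. The log2 change of mt-Rnr1 ranged from -1.54 to 0.43 and that of mt-Rnr2 from -1.62 to 0.96 between these fits. Of the list of untailed RNAs, 6 of 10 genes tested fell and 0 rose, where 31.0% of all genes fell and 34.5% rose. The median of the list was -2.75, and the part of these RNAs in the tRNA values was not tested.

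**Figure D3:**
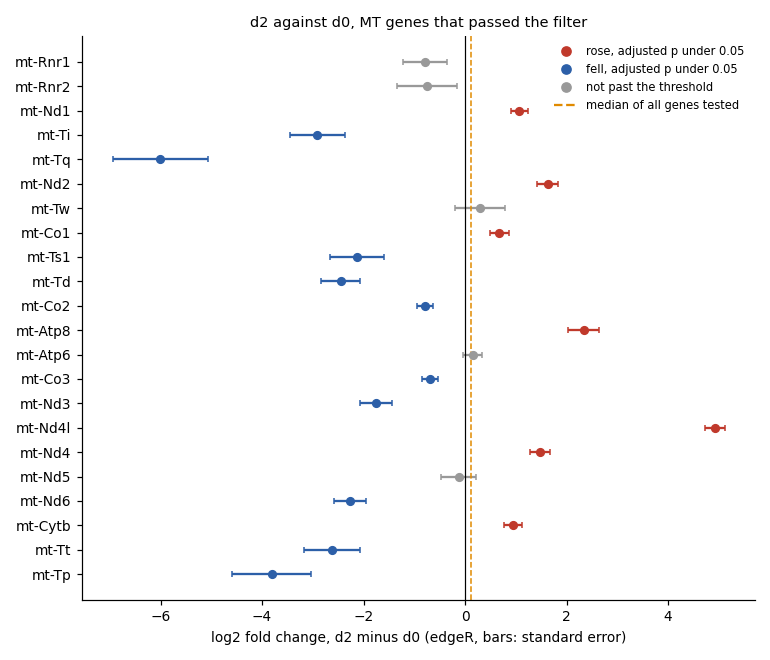
Log2 change from d0 to d2 of the 22 MT genes that passed the filter, with bars for 1 standard error on each side, red for genes that rose, blue for genes that fell at an adjusted p under 0.05 and grey for the others. The dashed line is the median of all genes tested. mt-Nd4l at 4.92 and mt-Tq at -6.01 are the ends of the range, with mRNAs on both sides of the all-gene median of 0.12.

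Ratios among MT genes do not depend on the scaling between libraries. Per length, mt-Nd4l stood at 5.81% (shLacZ) and 5.68% (shDIS3L2) of mt-Nd4 at d0 and at 57.3% to 66.1% in the 12 EB libraries. mt-Atp8 stood at 2.73% and 6.41% of mt-Atp6 at d0 and at 15.7% to 24.2% in the EBs. In reads per length, each upstream frame of the bicistronic pairs was thus far below its partner at d0 in both lines. These d0 ratios did not overlap with those of any EB library. mt-Co3 over mt-Atp6, neighbours that share 1 base, was 1.85 and 1.79 at d0 and 0.845 to 1.08 in the EBs. mt-Nd6 was 8.21% and 12.3% of the mean of the 12 heavy-strand mRNAs at d0 and 1.75% to 3.87% in the EBs. As a percent of the reads of the 13 mRNAs, 10 genes had both d0 values on the same side outside the EB range. mt-Co2 took 20.9% and 21.4% at d0 against 9.22% to 11.3%, and mt-Co3 took 20.8% and 21.3% against 10.4% to 12.1%. mt-Cytb took 4.73% and 4.19% against 7.35% to 9.96%, mt-Nd1 took 4.54% and 4.64% against 6.93% to 8.48%, and mt-Nd2 took 1.602% and 1.89% against 4.09% to 5.91%. Both d0 values of mt-Atp6 lay within the EB range. mt-Co1 took 29.9% at d0 in shLacZ, within the EB range of 29.2% to 37.2%, but 20.1% in shDIS3L2, below it. mt-Nd5 took 3.14% in shLacZ, below the EB range of 4.59% to 5.93%, and 8.62% in shDIS3L2, above it. The libraries of d0 also differ from the others in the pseudogene share and untailed RNA given above, and the part of library preparation in these ratios was not tested.

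**Figure D4:**
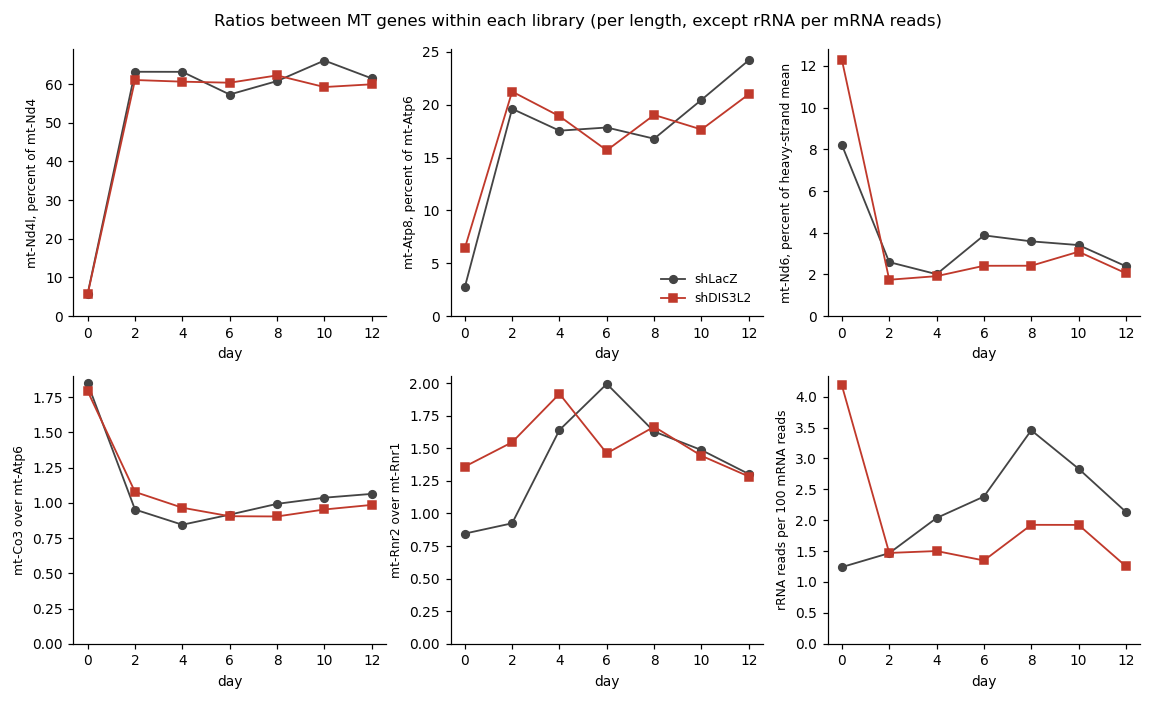
Ratios among MT genes in each library by day, 1 panel per ratio, with 1 point per library. All are per length except the rRNA reads per 100 mRNA reads. For mt-Nd4l over mt-Nd4, mt-Atp8 over mt-Atp6, mt-Nd6 over the heavy-strand mRNAs and mt-Co3 over mt-Atp6, both d0 values lie outside the range of the 12 EB libraries, and the rRNA reads per 100 mRNA reads of the libraries labelled shDIS3L2 from d6 to d12 (1.25 to 1.93) lie below those of shLacZ (2.13 to 3.46).

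Within EB differentiation, from d2 to d12, the MT genes did not pass the test although much of the transcriptome did. Of the 22 genes tested, 0 passed at an adjusted p under 0.05 in the edgeR fit, where 48.4% of all genes passed in either direction. At an unadjusted p under 0.05 there were 2. They were mt-Nd1 (log2 change -0.43, SE 0.17, adjusted p = 0.054) and mt-Tt (-1.42, SE 0.63, adjusted p = 0.0878). DESeq2 called 1 (mt-Nd1, lower). The mRNA values lay between mt-Nd1 and mt-Nd5 (0.16, SE 0.35). Both lines reached higher MT shares in between, at d6 and d8, which this contrast of the end points does not use.

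The libraries labelled shDIS3L2 were then compared with those of shLacZ. With 1 culture per line, an effect of the knockdown cannot be told apart from other differences between the lines. On each day, a fold of at least 2 between the CPM of the lines, with at least 1 CPM in 1 of them, was used as a description. At d0, 7 of 21 MT genes with 1 CPM were higher in shDIS3L2 and 0 lower, where 2.5% of all genes compared were higher and 12.7% lower. They were both rRNAs, mt-Tq, mt-Ta, mt-Tp, mt-Atp8 and mt-Nd5. For mt-Rnr2 the values were 188 CPM (shLacZ) and 673 CPM (shDIS3L2), a ratio of 3.58 (3.48 to 3.68), and for mt-Rnr1 they were 134 and 299 CPM. The median log2 ratio of all genes compared at d0 was -0.31, against -0.05 to 0.04 on the other days, and with TMM-scaled CPM 9 MT genes were higher. At d2, 0 of 18 were past the fold (0.792% of all genes were higher and 1.33% lower). At d4, 1 of 19 was lower, mt-Tp (1.91% of all genes were higher and 5.16% lower). At d6, 4 of 20 were lower, mt-Rnr2, mt-Tq, mt-Tw and mt-Tt (6.97% of all genes were higher and 7.82% lower). At d8, 3 of 20 were lower, mt-Tq, mt-Tt and mt-Tp (11.0% of all genes were higher and 8.28% lower). At d10, mt-Nd3 was higher and mt-Tp lower of 19 (13.6% of all genes were higher and 8.91% lower), and at d12, 0 of 18 were past it (12.7% higher and 4.41% lower). No mRNA was past the fold in the lower direction on any day. For the higher direction, the share of MT genes past the fold was above that of all genes at d0 (7 of 21 genes against 2.5%). For the lower direction it was above that of all genes at d6 and d8, by few genes. Of those genes, mt-Tq on both days (1.13 and 1.54 CPM) and mt-Tp at d8 (1.95 CPM) reached 1 CPM in shLacZ alone. Likewise mt-Ta at d0 (1.36 CPM) reached it in shDIS3L2 alone. Such genes were compared only through the line in which they were high, so no conclusion is drawn from these shares. The 1 of 19 lower at d4 was near the 5.16% of all genes.

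Over all 7 days, edgeR with day as a block called 0 of 22 MT genes different between the lines, where 5.72% of all genes passed in either direction. At an unadjusted p under 0.05 there was 1, mt-Nd3 (log2 difference 0.46, adjusted p = 0.117), and DESeq2 called 2 higher, mt-Co3 and mt-Nd3. Dis3l2 itself had a log2 difference of -1.08 (SE 0.30, adjusted p = 0.0599) in this fit. Without d0, mt-Rnr1, mt-Tq and mt-Tp were lower in shDIS3L2.

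From d6 to d12 the MT rRNAs and some MT tRNAs were lower in the libraries labelled shDIS3L2, while most mRNAs did not pass the test. The fit of these 8 libraries tested 20 MT genes. 6 of them were lower in the libraries labelled shDIS3L2 (18.7% of all genes were lower), both rRNAs and 4 tRNAs. 2 were higher (19.6% of all genes were higher), the mRNAs mt-Atp6 and mt-Co3. The median log2 difference was 0.08 for the 13 mRNAs, -0.62 for the rRNAs and -1.08 for the tRNAs tested, against 0.02 for all genes. Dis3l2 had a log2 difference of -0.35 over these days and did not pass the test (adjusted p = 0.126).

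mt-Rnr1 stood at 295, 548, 380 and 239 CPM in shLacZ from d6 to d12 and at 198, 301, 317 and 168 CPM in the libraries labelled shDIS3L2. The latter were lower on each of the 4 days, at 0.549 to 0.834 of the shLacZ level, while the ranges of the lines overlapped across days. The log2 difference was -0.56 (SE 0.10, adjusted p = 0.00603, edgeR). mt-Rnr2 stood at 974, 1480, 937 and 517 CPM in shLacZ and at 480, 831, 759 and 357 CPM in shDIS3L2. It too was lower on each of the 4 days, with a log2 difference of -0.68 (SE 0.12, adjusted p = 0.00548). Relative to the mRNAs of the same library, the rRNAs gave 2.13 to 3.46 reads per 100 mRNA reads in shLacZ and 1.25 to 1.93 in shDIS3L2, without overlap. At d0 the order was the reverse, with 1.24 in shLacZ and 4.18 in shDIS3L2. The call of both rRNAs held in all 8 alternative fits (adjusted p from 3.57e-05 to 0.0298 for mt-Rnr1 and from 4.34e-06 to 0.0397 for mt-Rnr2).

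Of the tRNAs, mt-Tq, mt-Tp, mt-Tt and mt-Td were lower in the libraries labelled shDIS3L2. mt-Tt stood at 55, 99, 13 and 11 reads in shLacZ from d6 to d12, which is 4.13, 5.86, 1.57 and 1.09 CPM, and at 18, 39, 24 and 8 reads in shDIS3L2, which is 1.70, 1.98, 1.14 and 0.749 CPM. The log2 difference was -1.08 (SE 0.28, adjusted p = 0.0225). mt-Td stood at 15.5, 19.6, 9.81 and 7.34 CPM in shLacZ and at 13.4, 15.3, 5.87 and 5.34 CPM in shDIS3L2, lower on each of the 4 days, with a log2 difference of -0.44 (SE 0.14, adjusted p = 0.0418). mt-Tp had -1.37 (SE 0.38, adjusted p = 0.0278) and mt-Tq -1.64 (SE 0.39, adjusted p = 0.0155), each on at most 33 reads per library. The call of mt-Td held in 3 of 8 alternatives, that of mt-Tp in 4 of 8, that of mt-Tq in 4 of the 6 that tested it and that of mt-Tt in 6 of 8. mt-Tw (-0.80, adjusted p = 0.0543) did not pass the test. Without d8 in the fit no tRNA passed, and without d10 mt-Tt alone did. The untailed RNAs of the nucleus also had lower values. Their summed level was 17.7 to 30.4 CPM in shLacZ and 12.1 to 24.7 CPM in shDIS3L2. Of 5 tested 2 fell, where 18.7% of all genes fell. The 2 were Rpph1, the RNA of RNase P (-1.91, adjusted p = 0.00413), and Snora73b (-0.71, adjusted p = 0.0298). The median of the 5 was -0.71. The part of the untailed RNAs in the rRNA and tRNA differences was not tested.

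Of the mRNAs, mt-Atp6, the proton channel subunit of the ATP synthase, stood at 5342, 5421, 4124 and 2997 CPM in shLacZ and at 5777, 6534, 6155 and 4358 CPM in the libraries labelled shDIS3L2. The ratios were 1.08, 1.21, 1.49 and 1.45 from d6 to d12, and the log2 difference was 0.37 (SE 0.09, adjusted p = 0.0221). mt-Co3 had ratios of 1.07, 1.10, 1.37 and 1.35 and a log2 difference of 0.27 (SE 0.09, adjusted p = 0.0466). mt-Cytb (0.28, adjusted p = 0.0515), mt-Atp8 (0.26, adjusted p = 0.0686) and mt-Nd3 (0.54, adjusted p = 0.073) did not pass the test. mt-Nd3 stood at 378, 435, 264 and 196 CPM in shLacZ and at 330, 560, 562 and 380 CPM in shDIS3L2, a ratio of 0.872 at d6 and of 2.13 at d10. The other mRNAs had log2 differences between -0.27 (mt-Nd6) and 0.21 (mt-Nd2). These calls rested on the days used. Without d8, d10 or d12 in the fit no mRNA passed, and without d6 there were 6, mt-Nd2, mt-Atp8, mt-Atp6, mt-Co3, mt-Nd3 and mt-Cytb.

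**Figure D5:**
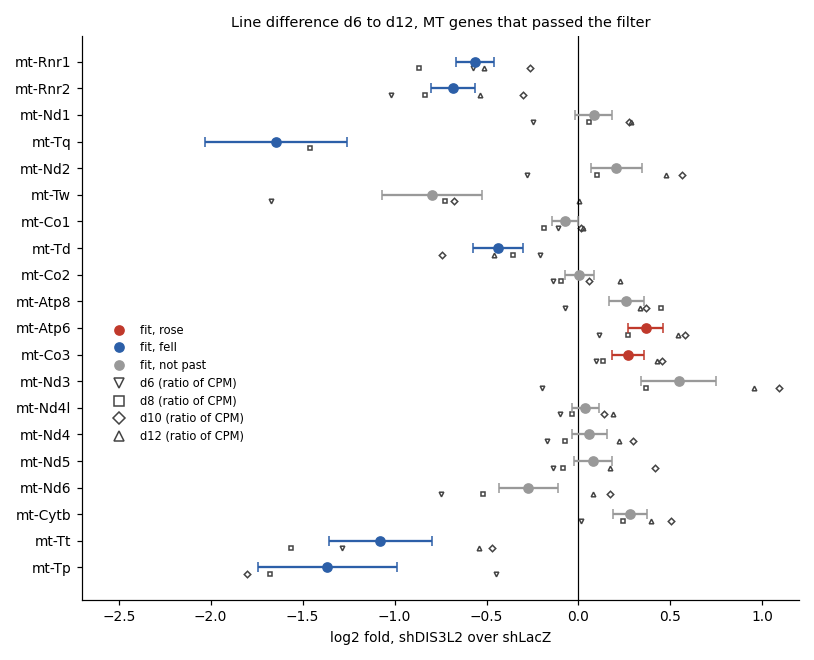
Log2 difference between the lines (shDIS3L2 minus shLacZ) over d6 to d12 for the 20 MT genes tested, with bars for 1 standard error on each side, red for rose, blue for fell and grey for not past an adjusted p of 0.05. Small open symbols give the log2 ratio of CPM on each of the 4 days where both libraries had more than 3 reads. Both rRNAs lie below 0 on every day, and mt-Atp6 and mt-Co3 lie above 0 on every day.

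Whether the line difference itself changed between d0 to d4 and d6 to d12 was tested as an interaction. Of the 22 genes, 2 passed, both lower, where 5.24% of all genes were lower. mt-Tq (log2 change of the difference -2.71, SE 0.72, adjusted p = 0.039) and mt-Tt (-1.58, SE 0.39, adjusted p = 0.0309) became lower in shDIS3L2 relative to shLacZ. At d0 mt-Tq stood at 2.61 CPM (shLacZ) and 6.46 CPM (shDIS3L2), and it did not exceed 1.54 CPM in any EB library. Neither call held with library totals or without the d0 libraries, or without 1 of them. For the rRNAs, which were higher in shDIS3L2 at d0 and lower from d4 on, the interaction did not pass the test.

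The nuclear genes of the same complexes give the background for the mRNA values. From d0 to d2, when mt-Nd4l, mt-Nd2, mt-Nd4 and mt-Nd1 rose, the nuclear subunits had lower levels. Against 31.0% of all genes that fell, 36 of 37 tested of complex I fell and 1 rose, of complex III 8 of 9 fell, of complex IV 15 of 15 and of complex V 17 of 17. The median log2 changes were -2.33, -1.99, -2.58 and -2.09 against 0.12 for all genes. Summed, complex I took 6348 CPM (shLacZ) and 7419 CPM (shDIS3L2) at d0 and 1994 to 2599 CPM in the EBs, so the d0 libraries stand apart here as well, and the part of their pseudogene and library properties was not tested. Between the lines from d6 to d12, 3 nuclear subunits of complex I rose and 2 fell of 37 tested (median 0.02), 0 rose and 3 fell of 9 for complex III (-0.13), 2 and 5 of 14 for complex IV (-0.09), and 2 and 1 of 17 for complex V (0.04), where 19.6% of all genes rose and 18.7% fell. In complexes I and V both shares were under those of all genes. In complexes III and IV the share that fell was above that of all genes, by few genes, and the share that rose was under it. The accessory subunits Ndufv3 (0.58) and Ndufa5 (0.40) of complex I were higher and Ndufb7 (-0.45) and Ndufs6 (-0.27) lower. In complex III, Uqcrq (-0.60) and Uqcrfs1 (-0.22), the Rieske protein, were lower. In complex IV, Cox7a2l (0.40) and Cox6a1 (0.26) were higher and Cox7a1 (-0.62), the heart and muscle isoform, and Cox4i1 (-0.52) lower. In complex V, Atp5j (0.53) and Atp5h (0.25) were higher and the catalytic Atp5b (-0.24) was lower. The calls of Ndufs6, Uqcrfs1, Cox6a1, Cox7a1 and Atp5h each held in 2 of 8 alternatives and were lost with DESeq2, and those of Cox7a2l, Cox4i1 and Atp5j held in all 8.

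Among the nuclear genes that make and keep mitochondrial RNA, 0 of 9 genes of mtRNA transcription passed the edgeR test from d6 to d12, with 0 at an unadjusted p under 0.05 and 0 called by DESeq2. Their median was 0.11, with Polrmt at -0.11, Tfam at -0.07 and Tfb2m at -0.03. Of the genes of mtRNA processing, modification and decay, 2 rose and 6 fell of 32 (median -0.13), so that the share that fell was near the 18.7% of all genes and the share that rose under 19.6%. Hsd17b10, a subunit of mitochondrial RNase P, was higher (0.46), as was Angel2 (0.31), and Mrm1, a methyltransferase of the large mitochondrial rRNA, was lower (-0.60), as was Fastkd3 (-0.55). The call of Mrm1 held in 3 of 8 alternatives. Lrpprc fell by 0.35 on the log2 scale (adjusted p = 0.0077), while its partner Slirp (0.14), Mtpap (-0.10) and Pnpt1 (-0.07), the mitochondrial polynucleotide phosphorylase, did not pass the test. Of the genes of mtDNA replication, 0 rose and 5 fell of 11 (median -0.29), among them the mitochondrial topoisomerase Top1mt (-1.22) and the polymerase Polg (-0.82). Of 9 regulators of mitochondrial biogenesis, Ppargc1a, a coactivator that induces oxidative metabolism, rose by 2.36, at 0 to 3.09 CPM in the libraries labelled shDIS3L2 and 0 to 0.496 CPM in shLacZ, and Esrrb, an orphan receptor that is also a marker of ESCs, and Pprc1 fell by 1.72 and 0.32. From d0 to d2, Pnpt1 (1.79), Tfb2m (0.90) and Lrpprc (0.80) rose and Slirp (-2.33) fell. Mtpap fell by 0.57 with TMM, but its value was 0.04 with library totals (adjusted p = 0.837), and it stood at 30.2 to 34.1 CPM at d0 and 31.8 to 34.3 CPM at d2.

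In bulk libraries, fewer cells of a type and less RNA per cell cannot be told apart, and markers of several cell types differed between the lines on the days at which the MT rRNAs differed. From d6 to d12, 19.6% of all genes tested were higher in the libraries labelled shDIS3L2 and 18.7% were lower. Of 12 cardiomyocyte markers 9 were higher (summed level 93.0 to 286.6 CPM against 48.3 to 119.5 CPM in shLacZ). Of 8 mesenchyme markers 7 were higher (1071 to 16676 CPM against 331 to 1915 CPM), and of 7 primitive erythroid markers 3 were higher (35.8 to 1327 CPM against 6.15 to 819 CPM). Of 8 visceral endoderm markers 7 were lower (530 to 1903 CPM against 2753 to 6782 CPM), and 6 of 8 markers of undifferentiated ESCs were lower (64.5 to 373 CPM against 380 to 541 CPM). Of the nuclear copies of mitochondrial DNA, 3 of 9 were higher and 0 lower. In the libraries of d6 to d12 none of the erythroid, mesenchyme, visceral endoderm or ESC markers was at 0, and at most 1 of 14 cardiomyocyte markers was. The part of these cell types in the differences of the MT genes was not tested.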

How the data were processed

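Poly(A)+ RNA was sequenced in 14 libraries. Alignment to GRCm38 was done by the authors with Subread, who counted reads per gene with featureCounts, and the deposited counts are whole reads without normalization. The strand setting and the treatment of multi-mapping reads are not given in the sources used here. The authors' table of normalised CPM was not used. Libraries were grouped by the labels' line and day, and the count columns were matched to them by name. The columns of the knockdown line carry a hairpin's short name, which the study's supplement uses for shDIS3L2.

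CPM was computed over all 50686 genes. Library totals were 7178712 to 39888099 counts. Symbols and sequences came from GENCODE M21, which matched 50376 genes. Fits on the counts used edgeR 4.0.16 (R 4.3.3) with TMM, filterByExpr, the quasi-likelihood F test and Benjamini-Hochberg adjustment over all genes tested, threshold 0.05. Day was a factor, so p-values measure how the differences vary between days and lines of 1 series, not between cultures. Standard errors were derived from the log2 fold change and the F statistic. With 1 library per line and day, daily ratios carry exact 95% Clopper-Pearson intervals and no test. The alternatives were library totals, TMM over nuclear genes, DESeq2 1.42.0, no filter, and leaving out each day. Leaving out each d0 library was added after seeing the data. The fits were tested on simulated data with known changes.

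All MT mRNAs and rRNAs are named. Of the tRNAs, the 4 with the highest mean CPM are named, and mt-Tq, mt-Ti, mt-Ts1, mt-Ta and mt-Tr were named after their values were seen. Of each nuclear mitochondrial list, up to 2 genes in each direction with the largest called difference at d6 to d12 are named, plus Polrmt, Tfam, Tfb2m, Lrpprc, Slirp, Pnpt1 and Mtpap. Rpph1 and Snora73b are named as the 2 untailed RNAs called, and Rmrp and Rn7sk after their values were seen. The members and the gene lists were chosen with earlier results of these data known.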

Additional observations from a re-analysis of the deposited data

Results flagged for a closer look

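The line difference of mt-Tq and mt-Tt, the tRNAs for glutamine and threonine, differed between d0 to d4 and d6 to d12 by the interaction term of the edgeR fit. The log2 change of the difference was -2.705 for mt-Tq (adjusted p = 0.039) and -1.583 for mt-Tt (adjusted p = 0.0309). mt-Tq had 104 and 171 reads at d0 in shLacZ and shDIS3L2 and at most 26 reads in any EB library. mt-Tt had 294 and 291 reads at d0 and at most 99 in the EBs. For both tRNAs the call was lost with library totals, without d0, without either d0 library, and without d6, d8 or d10. The part of the untailed RNA in the d0 libraries was not tested.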

How the results depend on the processing

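No direction of a called MT gene reversed. From d6 to d12, where 2 MT genes were higher and 6 lower, DESeq2 gave 4 and 3, TMM over the nuclear genes 1 higher and no filter 5 higher. Leaving out a day gave 0 to 6 higher and 2 to 5 lower, with 0 higher without d8, d10 or d12, 6 higher without d6, 2 lower without d8 and 3 lower without d10. Both rRNAs passed in all 8 alternatives, mt-Tt in 6, mt-Atp6 in 5, mt-Co3 and mt-Tp in 4 and mt-Td in 3 of 8, and mt-Tq in 4 of 6. Of 184 alternative values of 23 nuclear genes called, 52 were no longer past the threshold. Over 7 days, with 0 calls, DESeq2 gave 2 higher, no filter 1 higher, and leaving out days or d0 libraries 0 higher and 0 to 3 lower. For the change between early and late days, with 2 lower, DESeq2 gave 1, library totals 0, no filter 6 and leaving out days or d0 libraries 0 to 2. For d12 against d2, with 0 calls, DESeq2 gave 1 lower, no filter 1 lower and leaving out days 0 to 1 lower. For d2 against d0, with 7 higher and 10 lower, leaving out days or d0 libraries gave 7 to 8 higher and 9 to 14 lower. The causes were not tested. Summed over days, 8 higher and 9 lower members past 2-fold became 17 lower at 1.5-fold, 2 and 5 at 3-fold, 21 and 32 with no minimum CPM, and 5 and 1 with a minimum of 10 CPM. The median share of mt-Co1 among the mRNA reads was 31.9%, and 39.2% without the 4 genes of the bicistronic pairs.

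Over all genes, the 382 higher and 765 lower over 7 days became 1065 and 1446 with DESeq2 and 847 and 1246 with no filter, and 1 to 841 higher and 7 to 1435 lower when a day or d0 library was left out. The 3365 higher and 3209 lower from d6 to d12 became 1784 and 1665 without d8 and 1695 and 1641 without d10. For the change of the line difference, 972 higher and 1051 lower became 1788 higher with no filter and 415 lower with library totals, and 315 to 1169 higher and 209 to 982 lower when a day or d0 library was left out. For d2 against d0, 6212 lower became 4107 with library totals. All line fits paired the lines by day, and no pairing by replicate number was possible with 1 library per line and day. Of the 37 members, 22 passed the filter on low counts, and the others, all tRNAs, could not be tested.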
